A study of Mus musculus with 6 samples.

Results

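Matricellular and adhesive matrix glycoproteins were examined in E0771 mouse mammary tumour cells and in E0771-HML2, a derivative selected for metastasis to the lung. The set comprised 10 named genes: the thrombospondins Thbs1, Thbs2 and Thbs3, then Sparc, Spp1, Tnc, Tgfbi, Postn, Fn1 and Abi3bp. Members were taken by gene symbol, through array probe sets that the annotation assigns to that symbol alone, and each gene was represented by its brightest such probe set. This gave 9 genes out of 18193 genes on the array with such a probe set. Spp1, which encodes osteopontin, had none and is not analysed here.

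The parental group was 3 cultures of unselected E0771 cells, a line from a mammary tumour of the C57BL/6 strain. The HML2 group was 3 cultures of a second-generation population: E0771 cells were injected orthotopically into C57BL/6 hosts, cells that had spread to the lung were taken back into culture, and the cycle was repeated. All 6 cultures were grown for 3 days in the same serum-containing medium with antibiotics, the labels name no added agent, and each was hybridised to its own Affymetrix mouse array. The labels call the cultures biological replicates and do not state whether HML2 cultures trace to separate mice, so the spread behind each p-value is that among cultures and may be technical.

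Matricellular proteins are secreted into the extracellular matrix, where they bind structural proteins, growth factors and cell-surface receptors and so adjust how a cell attaches, spreads and moves. Thrombospondins, SPARC, tenascin C, osteopontin and periostin are the classic examples, and most are low in resting adult tissue and induced in wounds and in tumour stroma. Fibronectin is a fibril-forming adhesive glycoprotein to which cells attach through integrins, and many of these genes respond to TGF-beta.

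The values are linear signals scaled to the same trimmed mean on each array, and 39.7% to 41.6% of probe sets per array reached a signal of 100. Bacterial tryptophan control probe sets, which have no target in mouse RNA, read 1.97 to 36.2 and serve as a gauge of background; the table holds no detection calls. Precision is limited by the small number of arrays. Of a list of mammary epithelial markers, the keratin gene Krt8 had signals of 1034, 1098 and 1154 in parental and 3592, 4875 and 4057 in HML2 cells, whereas Krt14 and Krt19 stayed at or below 36.2 on all 6 arrays and Cdh1 averaged 22.9 and 19.4. Of the others, given as parental and then HML2 means (SD, n = 3), Epcam averaged 133 ± 24.5 and 83.5 ± 15.0, Krt5 26.1 ± 12.6 and 58.5 ± 4.04 and Krt7 37.1 ± 30.7 and 6.23 ± 2.25. Krt18 signals were 41.1, 25.4 and 36.1 on parental and 97.9, 100.5 and 59.7 on HML2 arrays. Krt8 thus had by far the highest signals of this list, and the mammary tumour origin rests on the labels.

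A total of 5 genes of the set were lower in HML2 cells and none was higher. Abi3bp, Thbs1 and Tgfbi differed most. The HML2 signals of Abi3bp and Thbs1 were at about 36.2, the highest bacterial control signal of any array, or below it. Differences on the log2(signal + 50) scale were -2.12 for Sparc and -1.57 for Thbs2, and Thbs3, at -0.05, was not called. Among the 9 genes, 6 had a mean signal of at least 100 over the arrays and were tested, and 5 of these 6 were called lower (limma, Benjamini-Hochberg adjusted p below 0.05 over all 9361 genes tested). In the background of all tested genes 14.9% were called lower and 12.3% higher. The HML2 arrays lay wholly below the parental arrays for the same 5 genes, a pattern seen in 23.8% of all tested genes. The median difference was -2.83 over the 6 genes and -0.02 over all genes tested. Only Sparc, Tgfbi and Thbs3 reached a mean of 100 within the HML2 group as well; Abi3bp, Thbs1 and Thbs2 passed the filter through their parental signals, so the count describes these genes and is not a test of the set. In cultures, fewer cells that express a gene and less RNA per cell cannot be told apart.

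**Figure D1:**
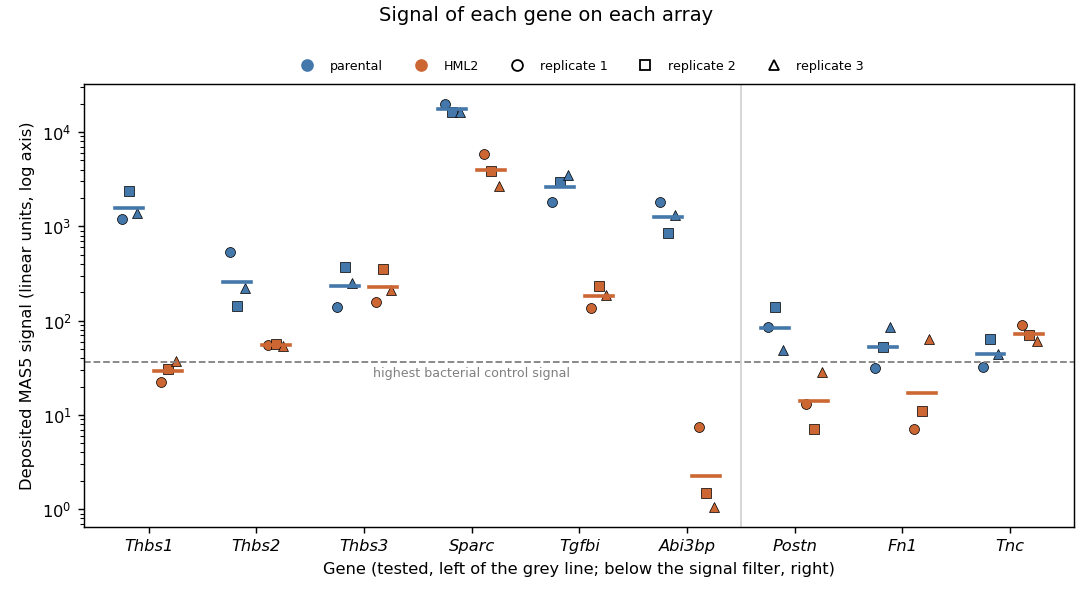
Deposited signal (log axis) of the 9 genes on each of the 6 arrays; blue symbols are parental and orange symbols HML2 cultures, symbol shape gives the replicate number, short bars are geometric means of 3 arrays, and the dashed line is the highest bacterial control signal, 36.2. For Thbs1, Thbs2, Sparc, Tgfbi, Abi3bp and Postn the HML2 arrays all lie below the parental arrays, whereas the groups overlap for Thbs3, Fn1 and Tnc.

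Thbs1 encodes thrombospondin 1, a ligand of CD36 and CD47 that inhibits angiogenesis and can activate latent TGF-beta. Its signals were 1194, 2381 and 1372 on parental arrays 1 to 3 and 22.6, 30.4 and 36.9 on HML2 arrays 1 to 3. The groups were far apart. HML2 signals lay within the bacterial control range of all arrays together on 2 arrays and just above it on the remaining one. The top of that range, 36.2, came from parental array 2. On HML2 arrays 1 to 3 the highest control signals were 20.8, 14.1 and 26.5, each below the Thbs1 signal of the same array. The fitted log2 difference was -4.35 ± 0.25 (SE; limma adjusted p = 3.2e-05), a value that the offset of 50 sets in part. With HML2 signals raised to the floor of 36.2 where they were lower, the parental signal of this probe set was at least 43.3-fold higher. On the other Thbs1 probe set the parental mean was 19.3 times the HML2 mean.

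Thbs2 encodes thrombospondin 2, which resembles thrombospondin 1 and takes part in collagen fibril assembly. Parental signals were 529.5, 144 and 223, and HML2 signals were 55.5, 56.6 and 54.2. All HML2 arrays were below all parental arrays, but parental replicate 1 was 3.66 times the lowest parental array. The difference was -1.57 ± 0.36 (limma adjusted p = 0.013), and it was -1.13 (limma adjusted p = 0.017) without parental replicate 1. That array was also the highest for the fibroblast markers Dpt (328 against 54.9 and 68.1 on the other parental arrays), Pdgfra (2500.3 against 1467 and 1896) and Pdgfrb (1857 against 869.6 and 1243); the part of these values in the Thbs2 result was not tested.

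Thbs3 belongs to the thrombospondin subgroup that lacks the anti-angiogenic repeats. Its signals were 139, 374 and 252 in parental and 157, 353 and 209 in HML2 cells. The groups overlapped almost fully, and replicate 2 was the highest array in both. The difference was -0.05 with a 95% confidence interval from -0.82 to 0.71 (limma adjusted p = 0.92), so changes of either sign within that interval are not told apart at this precision. With quantile normalization the difference was 0.02.

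Sparc encodes a calcium- and collagen-binding glycoprotein that loosens cell-matrix contacts and assists collagen deposition. Signals were 19786.5, 16472 and 16209.6 on the parental arrays and 5868, 3898 and 2705 on the HML2 arrays. The groups did not overlap, yet Sparc remained far above background in HML2 cells on every array. The HML2 arrays were spread more widely, by a factor of 2.17 between highest and lowest against 1.22 among parental arrays. The mean signal was 4.21 times higher in parental cells, and the log2 difference was -2.12 ± 0.24 (limma adjusted p = 6.7e-04).

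Tgfbi and Postn encode the fasciclin-domain proteins TGFBI (also called beta-ig-h3) and periostin, which bind integrins and collagens. Tgfbi signals were 1819, 2922 and 3468 in parental and 136, 234 and 189 in HML2 cells. The difference was -3.53 ± 0.25 (limma adjusted p = 6.8e-05), and the mean signal was 14.7 times higher in parental cells. Postn had signals of 86.1, 139 and 49.2 in parental and 13.1, 7.17 and 28.6 in HML2 cells. Its HML2 arrays were all below the parental arrays and within the range of the bacterial controls. With an overall mean of 53.9 it lay below the signal filter and was not tested. In a fit without the filter its difference was -1.06 ± 0.26 (limma adjusted p = 0.035), where 6.82% of 18193 genes were called lower.

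Abi3bp encodes a matrix protein that binds the adaptor ABI3 and has been linked to growth arrest and senescence. Its signals were 1798, 859 and 1309 in parental and 7.45, 1.47 and 1.06 in HML2 cells. The HML2 signals were all within or below the bacterial control range, so their order carries no information. The fitted difference was -4.63 ± 0.25 (limma adjusted p = 2.7e-05). Against the floor of 36.2 the parental signal of this probe set was at least 35.0-fold higher. The fitted value depends on the offset added before taking logarithms. It was -6.07 with an offset of 16 and -3.73 with an offset of 100, and for Thbs1 -5.13 and -3.69. The identifier of the chosen Abi3bp probe set marks it as able to match several transcripts. On the other Abi3bp probe set signals were 511, 140 and 488 in parental and 0.64, 15.7 and 0.67 in HML2 cells.

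Fn1 and Tnc, which encode fibronectin and tenascin C, had low signals in both populations. Fn1 signals were 31.6, 52.3 and 86.2 in parental and 7.12, 10.9 and 63.5 in HML2 cells. The groups overlapped, and 3 of the 6 arrays were at or below the highest bacterial control. Without the signal filter the difference was -0.51 with a 95% confidence interval from -1.20 to 0.19 (limma adjusted p = 0.36). Tnc was the member with a positive difference: its signals were 32.1, 63.5 and 44.04 in parental and 90.6, 70.9 and 60.4 in HML2 cells, a difference of 0.37 with an interval from -0.11 to 0.84 (limma adjusted p = 0.33, no filter). The nearest members on either side of the filter were Thbs2, with a mean signal of 177, and Tnc, with 60.3. In the fit without a filter, 6 of the 9 genes were called lower, against 6.82% of all 18193 genes.

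**Figure D2:**
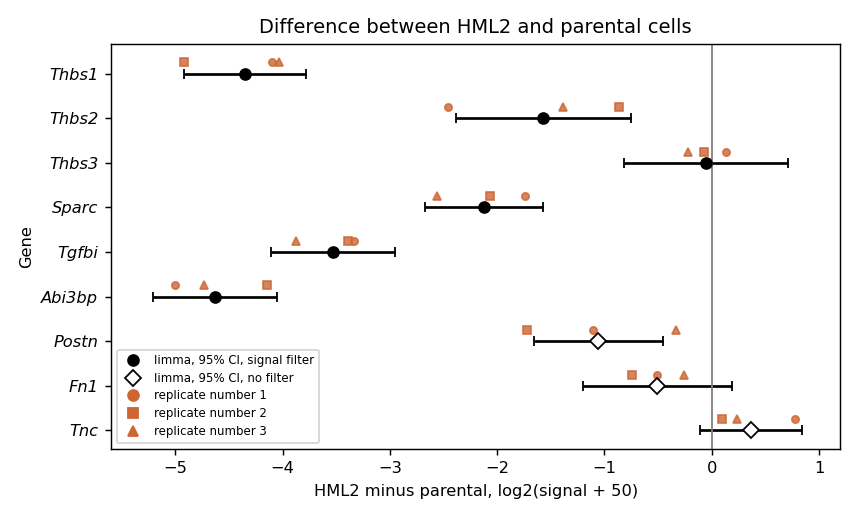
Difference between HML2 and parental cells on the log2(signal + 50) scale for 9 genes. Black points with bars are limma estimates with 95% confidence intervals (filled with the signal filter, open without it), and orange symbols are the differences between the HML2 and parental arrays of the same replicate number. All 3 same-number differences are negative for Thbs1, Thbs2, Sparc, Tgfbi, Abi3bp, Postn and Fn1 and positive for Tnc, whereas Thbs3 has both signs.

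Differences between arrays of the same replicate number varied most for Thbs2 and Postn. They were large and negative at every number for Thbs1, Tgfbi and Abi3bp. The differences for numbers 1 to 3 were -4.10, -4.92 and -4.03 for Thbs1, -3.33, -3.39 and -3.88 for Tgfbi and -5.01, -4.14 and -4.73 for Abi3bp. Sparc ranged from -1.74 for number 1 to -2.56 for number 3. Thbs2 varied most among the called members, from -2.46 for number 1 to -0.87 for number 2. Thbs3 had 0.13, -0.07 and -0.22, which straddle 0. Below the filter, Postn had -1.11, -1.73 and -0.33, Fn1 -0.51, -0.75 and -0.26 and Tnc 0.78, 0.09 and 0.23.

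The 9 genes are covered by 20 probe sets that carry their symbol alone, of which 14 passed the filter. Of these 14, 12 were called lower (limma across 18359 probe sets, Benjamini-Hochberg adjusted p below 0.05, background 13.5% called lower). All tested probe sets of Thbs1, Thbs2 and Abi3bp, and a Tgfbi probe set, passed the filter through their parental signals. Probe sets of the same gene are also not independent, so this count is a description and no test of the set. Both Thbs1 probe sets were lower, at -4.35 and -2.59 (a further one, assigned to Thbs1 together with another gene, was left out), and so were both for Abi3bp, at -4.63 and -2.80. All 4 Tgfbi probe sets were lower, from -3.53 to -2.03. They differed in the signal left in HML2 cells: a probe set with 449, 774 and 779.6 in parental cells fell to 4.95, 21.7 and 54.2, whereas the other Tgfbi probe sets, whose identifiers mark them as able to match several transcripts, kept means between 139.8 and 186. The probe set chosen for Tgfbi is of that kind. For Sparc, 2 probe sets were called, at -2.12 and -2.38, and a dim one with means of 75.2 and 62.0 was not tested. For Thbs2, 2 of 3 probe sets were called and the other missed the threshold (limma adjusted p = 0.0502). Parental replicate 1 was highest on all 3 Thbs2 probe sets, at 529.5, 609 and 695, against 84.3 to 223 on the other parental arrays.

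**Figure D3:**
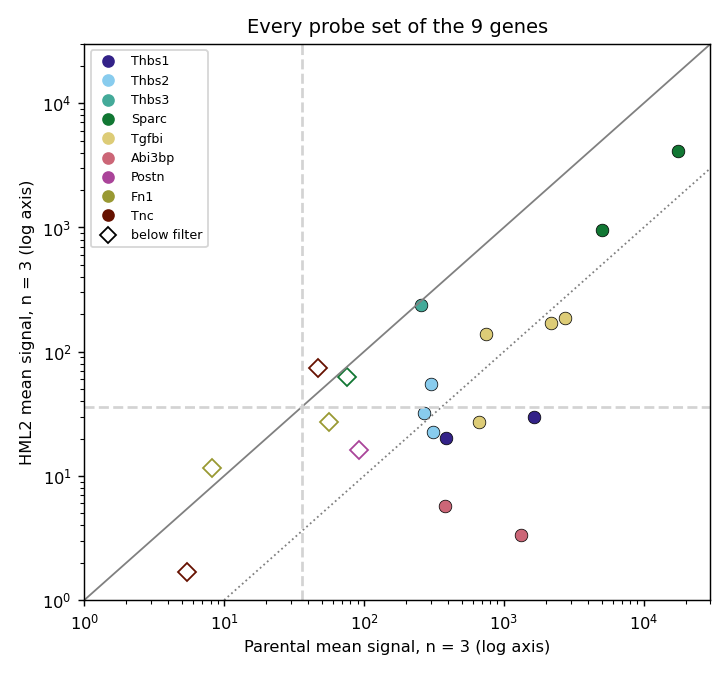
Mean signal of 3 parental arrays (x axis) against mean signal of 3 HML2 arrays (y axis), both log axes, for the 20 probe sets of the 9 genes; diamonds are probe sets below the filter, the solid line is equality, the dotted line is a 10-fold lower HML2 signal, and dashed lines mark 36.2. Probe sets of Thbs1, Thbs2, Tgfbi and Abi3bp lie below the solid line, the Thbs3 probe set lies near it, and diamonds cluster at low signals.

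Promoters are shown for the members called lower with the signal filter that the RefSeq promoter table (GRCm38.p6) holds. These genes share a lower call, and whether they are regulated together was not tested. The table matched 7 of the 10 genes. Thbs1 and Abi3bp, the members with the largest differences, are not in it. Postn, called lower only without the filter, has 2 windows there that are not printed: 1 holds TATAAA, 26 bases before the start, and the other holds none of the motifs below. Each line gives the 250 bases before the annotated start, in the direction of the gene. Capitals mark matches on either strand to 6 short motifs. These were the TATA box, searched as TATAAA, the CCAAT box, the binding site of Sp1, searched as GGGCGG, the site of AP-1, searched as TGANTCA, the site of TEAD factors, searched as GGAATG, and the Smad element, searched as CAGACA. The matches in these windows do not overlap. The windows are chr11:55420081-55420330 on the minus strand for Sparc, chr13:56609336-56609585 on the plus strand for Tgfbi and chr17:14694263-14694512 on the minus strand for Thbs2.
Sparc: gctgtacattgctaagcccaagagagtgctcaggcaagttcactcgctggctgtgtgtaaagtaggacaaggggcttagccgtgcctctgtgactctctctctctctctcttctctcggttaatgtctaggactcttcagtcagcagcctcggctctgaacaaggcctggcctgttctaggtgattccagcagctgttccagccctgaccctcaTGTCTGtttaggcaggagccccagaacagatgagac
Tgfbi: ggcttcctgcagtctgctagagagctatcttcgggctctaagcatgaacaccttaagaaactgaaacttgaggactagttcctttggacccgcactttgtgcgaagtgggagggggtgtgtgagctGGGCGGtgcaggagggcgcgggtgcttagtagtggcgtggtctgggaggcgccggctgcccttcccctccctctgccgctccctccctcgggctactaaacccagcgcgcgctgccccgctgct
Thbs2: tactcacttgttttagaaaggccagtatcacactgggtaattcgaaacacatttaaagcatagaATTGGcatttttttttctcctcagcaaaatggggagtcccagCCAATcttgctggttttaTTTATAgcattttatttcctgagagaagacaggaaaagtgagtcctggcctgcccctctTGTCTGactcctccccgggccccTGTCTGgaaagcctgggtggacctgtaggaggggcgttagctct
The Smad element letters were found in the Sparc window, 36 bases before the start, and at 2 places in the Thbs2 window, 67 and 44 bases before it, all on the strand opposite to the gene. Of all 32851 promoter windows of this length 17.1% hold them. The Tgfbi window held GGGCGG, 124 bases before the start, which 32.7% of all windows hold, and no match to CAGACA. The Thbs2 window also held TATAAA on the opposite strand, 126 bases before the start (12.4% of all windows), and CCAAT on either strand (33.8%). None of the 3 windows held TGANTCA (6.75% of all windows) or GGAATG (12.6%). The window of Thbs3, which was not called, held CCAAT and GGGCGG matches. CAGACA was not confined to lowered members. A window of Tnc, which was not called, held it 71 bases before the start. So did a window of Spp1, which was not measured, 34 bases before the start. The GC content was 54.0% for Sparc, 62.4% for Tgfbi and 46.8% for Thbs2, against a median of 52.4% over all windows. These letters describe the windows and say nothing of binding.

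Neighbouring genes on the chromosome did not share the size of the differences of the 5 lowered members. Among the 10 tested genes nearest to Thbs1 (5 on each side, by gene order in the RefSeq table), 3 were called lower and differences ranged from -0.95 for Bmf to 0.27 for Dph6. The neighbours of Sparc ranged from -0.33 for Slc36a1 to 1.10 for Tnip1, with 1 called higher. Those of Tgfbi ranged from -0.52 to 0.69 and those of Thbs2 from -0.83 to 0.81. Abi3bp had the most neighbours called lower, 4 of 10: Zbtb11os1 (-1.11), Tfg (-0.98), Tbc1d23 (-0.84) and Pcnp (-0.50). Thbs3, which was not called, lay within the range of its neighbours, from -0.46 to 0.79, of which 4 were called higher. Of all tested genes 14.9% were called lower and 12.3% higher. Whether position on the chromosome plays a part was not tested.

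Several relatives of these proteins were lower in HML2 cells as well. The list held other members of the thrombospondin, SPARC, tenascin, CCN, fibulin, EMILIN and SIBLING families and microfibril proteins. Of 44 listed genes 12 passed the filter, and 7 of these were called lower and 0 higher, or 58.3% against the 14.9% of all tested genes called lower. The lowered Dmp1 and Mfap2 passed the filter through their parental signals, so this count too is a description and no test of the list. The median difference was -1.25. With 1 array left out 6 to 9 were lower and 0 to 1 higher; without HML2 replicate 1 there were 9 lower and 1 higher. Emilin1, which encodes an elastic-fibre glycoprotein, went from 1674, 1586 and 1824 to 83.7, 259.8 and 168 (-3.07 ± 0.27; limma adjusted p = 2.0e-04). Mfap2, a microfibril component, differed by -2.33, Fbln2, a fibulin, by -1.85 and Fstl1, a secreted SPARC-family glycoprotein, by -1.84. Dmp1, an acidic matrix phosphoprotein of the osteopontin family, went from 351, 92.5 and 160.3 to 2.52, 1.59 and 0.776, which is at or below the bacterial control range. The CCN genes Ccn2 (-1.49, limma adjusted p = 0.12) and Ccn1 (-0.35, limma adjusted p = 0.55), and the SPARC relative Smoc1 (1.00, limma adjusted p = 0.072), did not pass the test. With the replicate number as a block Ccn2 was called lower (limma adjusted p = 0.0042) and Smoc1 higher (limma adjusted p = 0.0058). Matn2, a matrilin gene, was then called lower as well (limma adjusted p = 0.014), which made 9 lower and 1 higher. The block raised the calls over all 9361 tested genes too, to 1670 higher and 1831 lower. Ccn2 signals were 136, 1206 and 636 on parental and 60.5, 211 and 199 on HML2 arrays 1 to 3, and those of Smoc1 were 111, 211 and 183 against 185, 512 and 543, so each HML2 array moved the same way against the parental array of its number.

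**Figure D4:**
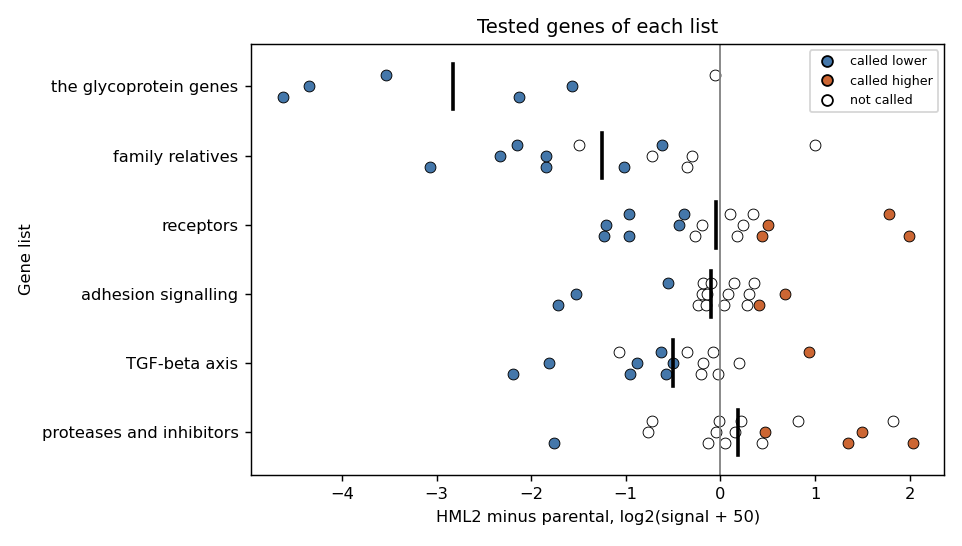
Difference between HML2 and parental cells, log2(signal + 50), for tested genes of the glycoprotein set (6), their relatives (12), receptors (16), adhesion signalling (17), the TGF-beta axis (15) and proteases with inhibitors (16). Blue points were called lower, orange points higher and white points were not called; black bars are medians, which run from -2.83 for the glycoprotein genes to 0.18 for proteases.

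Receptors of these proteins went both ways. Of 31 listed integrins, syndecans and scavenger and other receptors 16 were tested, and 4 were higher (25%, background 12.3%) and 6 lower (37.5%, background 14.9%), with a median of -0.04. The 4 higher genes became 2 without HML2 replicate 3 and in each fit that dropped a parental array, since Itga3 (0.50) and Itgb1 (0.44) lost their calls, and the 6 lower genes became 4 without parental replicate 3, since Itgav (-0.44) and Sdc1 (-0.39) lost theirs. The laminin-binding integrin subunit gene Itga6 rose from 1458, 1221 and 1125 to 7061, 4013 and 4913 (2.00 ± 0.21; limma adjusted p = 4.0e-04). Itgb7, a leukocyte-type integrin subunit gene, rose by 1.79. Itgb5, whose product pairs with alpha-v to bind vitronectin, fell from 1757, 1882 and 1852 to 988, 655 and 687 (-1.21 ± 0.17; limma adjusted p = 0.0015). Egfr (-1.23), which binds EGF-like ligands and is listed here for tenascin C, and the heparan sulfate proteoglycan gene Sdc2 (-0.97) also fell. The thrombospondin receptor gene Cd47 had a difference of 0.18 (limma adjusted p = 0.55) and the osteopontin receptor gene Cd44 one of 0.24 (limma adjusted p = 0.13), neither past the threshold.

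Intracellular adhesion genes were called at rates near the background. Of 17 tested, 3 were lower (17.6%, background 14.9%) and 2 higher (11.8%, background 12.3%), with a median of -0.09. Tns1 passed the filter through its parental signal. Tns1, which encodes the actin-binding protein tensin 1, differed by -1.72, the integrin-linked adaptor gene Parva by -1.53 and the vinculin gene Vcl by -0.56, all lower. The zyxin gene Zyx rose by 0.68 and Rhoa by 0.41; Rhoa lost its call when parental replicate 1 or 2, or HML2 replicate 2 or 3, was left out.

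In the TGF-beta axis 7 of 15 tested genes were lower (46.7%, background 14.9%) and 1 higher (6.67%, background 12.3%), with a median of -0.50. Without parental replicate 3 the 7 became 4, since Smad3 (-0.57), Tgfbr1 (-0.63) and Tgfbr2 (-0.50) were not called, and 5 were lower without parental replicate 1, HML2 replicate 2 or HML2 replicate 3. Smad7, a feedback inhibitor gene, was not called (-1.08, limma adjusted p = 0.076) but was called lower with the replicate number as a block (limma adjusted p = 0.0032). Ltbp3, which encodes a latent TGF-beta binding protein of the matrix, fell from 3668, 3401 and 4576 to 740.01, 936 and 750.2 (-2.19 ± 0.16; limma adjusted p = 6.8e-05), and Ltbp1, another of that family, differed by -0.96. The ligand gene Tgfb2 fell from 795, 707 and 730.1 to 142, 214 and 179 (-1.81 ± 0.17; limma adjusted p = 2.3e-04). The transcriptional co-repressor gene Ski was also lower (-0.88). The ligand gene Tgfb1 was higher, from 43.2, 65.5 and 65.2 to 123.3, 242 and 123.1 (0.94 ± 0.25; limma adjusted p = 0.026), a call lost without any 1 of the parental arrays or HML2 replicate 2. It passed the filter through its HML2 signals.

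Proteases that cut matrix glycoproteins, with their inhibitors, had 16 tested genes with a median of 0.18. Of these, 4 were higher (25%, against 12.3% of all tested genes called higher) and 1 lower (6.25%, background 14.9%). Mmp10 (2.04), Mmp9 (1.50), Mmp3 (1.34) and the inhibitor gene Timp1 (0.47) were higher. Mmp10 and Mmp9 passed the filter through their HML2 signals, so the 25% is no test of the list. Leaving out parental replicate 3 or HML2 replicate 3 left 2 higher genes, and without HML2 replicate 1 there were 3 lower genes. Mmp2 was lower, from 768, 757 and 739 to 192, 185 and 185 (-1.76 ± 0.13; limma adjusted p = 9.1e-05). The Mmp3 arrays overlapped, at 8055, 2827 and 3711 in parental and 17973, 7850.5 and 10041 in HML2 cells, and Mmp3 was not called when parental replicate 2 or 3, or HML2 replicate 3, was left out. Timp1 was not called when parental replicate 1 or 3, or HML2 replicate 2 or 3, was left out. With the replicate number as a block 7 of the 16 were higher and 2 lower. In that fit 1670 of all 9361 tested genes were higher and 1831 lower, also more than without the block.

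Markers of stromal cells, which make many of these glycoproteins in tissue, were measured beside them. Of 10 fibroblast markers, 2 had a mean signal of at least 100: Pdgfra, which was called lower (-1.09, limma adjusted p = 0.0052), and Pdgfrb (-1.18, limma adjusted p = 0.053). The fibroblast markers Fap and Thy1 were at or below 36.2 on all 6 arrays, and Dcn averaged 23.2 in parental and 23.6 in HML2 cells. Of the untested others, Dpt averaged 150.4 ± 154 in parental and 22.4 ± 12.5 in HML2 cells, Col14a1 59.5 ± 21.1 and 23.5 ± 20.3 and Lum 29.4 ± 28.7 and 15.7 ± 10.9. Pdpn averaged 46.5 ± 21.4 and 76.6 ± 14.8 and Pi16 6.58 ± 2.35 and 35.4 ± 27.8. The summed signal of the list was 2523 to 4932 in parental and 1258 to 2289 in HML2 cells, and its part in the lower glycoprotein signals was not tested. Of 6 endothelial markers none had a mean signal of 100 and 4 stayed at or below 36.2, with sums of 109 to 210.1 and 159 to 185. Of 8 leukocyte markers 3 had a mean of at least 100 (Lyz2 was called lower and Cd14 higher), Ptprc, Itgam and Cd3e stayed at or below 36.2, and the sums were 575 to 761 and 786 to 908. Of 7 lung epithelial markers Sftpb had a mean of at least 100 and did not pass the test, Scgb1a1 stayed at or below 36.2, and sums were 191 to 284 and 169 to 304.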

How the data were processed

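The members and gene lists were chosen with earlier results of these data known. The authors deposited unlogged intensities from MAS5, as named in the submitters' processing notes; its version is not given in the sources used here. The signals were already scaled, which removes any difference in total messenger RNA. Of 45101 probe sets, 34945 had 1 symbol, 932 had several and 9160 were not listed in the array annotation of 2016. Symbols were updated through the RefSeq table of GRCm38.p6, in which 34741 of the 34945 were found.

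Signals were converted to log2(signal + 50), which understates changes of dim genes. A mean signal of 100 or more over the arrays was required, and the brightest probe set represented each gene (9361 genes). Linear models were fitted in R 4.3.3 with limma 3.58.1 (lmFit; eBayes with an intensity trend), with Benjamini-Hochberg adjustment over all genes and calls at adjusted p below 0.05. The code was tested on simulated data. Lists were described by counts. All members were named, with, from each list, up to 5 called genes of largest difference, filled up to 3 by brightness; other named genes were chosen after their values were seen.

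Arrays with the same replicate number deviated together from their group means (correlations across genes of 0.45, 0.34 and 0.24), although its meaning is not stated in the labels; the fit reported has no block, and 1 alternative uses it. Other alternatives were the offset, the filter, the scaling, the trend, array weights, averaged probe sets and leaving out each array.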

Additional observations from a re-analysis of the deposited data

How the results depend on the processing

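The calls of Thbs1, Sparc, Tgfbi and Abi3bp as lower held under all 16 alternatives. That of Thbs2 held under all 15 in which it was tested, since it fell below a filter of 200. With that filter 4 members were lower (1211 of all 8159 genes tested), and without a filter 6 were (6.82% of all 18193 genes). With any 1 array left out 5 members were lower and 0 higher, and Thbs2 differences ran from -1.92 to -1.13. With the replicate number as a block 5 members were also lower and no tested member's call changed, but counts in the other lists did. Relatives had 1 higher and 9 lower, receptors 5 and 6, adhesion signalling 3 and 3, the TGF-beta axis 1 and 8, and proteases 7 and 2. The block raised the counts over all 9361 tested genes as well, to 1670 higher and 1831 lower. The sign of the uncalled Thbs3 was not stable: 0.023 with quantile normalization and -0.36 to 0.22 with 1 array left out. Over all genes tested, 1155 were higher and 1395 lower, and with array weights these counts were 2422 and 2631. Leaving out 1 array gave 590 to 1577 higher and 795 to 1845 lower genes. The cause of these shifts was not tested. Signals near the bacterial controls limit Fn1, Tnc and Postn, and give only a lower bound for the differences of Thbs1 and Abi3bp.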
